A study of Mus musculus with 8 samples.

Results

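H3K9me3 peaks annotated to Rik-named genes were described in colon crypts of *Smarcad1*-KO and WT mice. All peaks of the deposited table whose annotated gene symbol ends in Rik were taken, which gave 963 of 53761 peaks, at 411 genes. Another 52798 peaks were annotated to other genes or to none, and 15680 peaks in all were assigned to a named gene. The submitters ran ChIP-seq for H3K9me3 on whole crypt isolates from the colon of C57BL/6 mice. WT mice (3 ChIP libraries and 1 input library) were compared with mice carrying a *Vil-Cre* mediated KO of *Smarcad1* (3 ChIP libraries and 1 input library). *Vil-Cre* is active in intestinal epithelium, so non-epithelial cells of a crypt isolate keep *Smarcad1*, and the floxed allele was made in ES cells. Ages, and whether WT mice carried floxed alleles, were not given in the sources used here. The study calls the ChIP libraries of a genotype biological replicates, while the sample records do not tie them to mice. The p-values measure the spread between these libraries, at the peak itself and, through the variance prior of limma, at other peaks of similar level. The standard errors given below include this prior.

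A symbol that ends in Rik is a provisional name for a transcript found in the RIKEN collection of mouse cDNA clones, given before the function of the gene was known. Such genes include protein-coding genes and long noncoding RNAs, and many have since received a proper name. H3K9me3 is a histone mark of heterochromatin. It is deposited by the SETDB1 and SUV39H methyltransferases, is bound by HP1 proteins, and is known for covering repeats, pericentromeric DNA and clusters of zinc finger genes. SMARCAD1 is a chromatin remodeler of the SNF2 family that associates with KAP1, the corepressor that recruits SETDB1.

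The sequences below belong to the peaks on which the comparison turned. They are from GRCm38, written 5′ to 3′, with every CG dinucleotide, the site of DNA methylation, in capitals. The first 3 are the central 300 bases of a peak on the plus strand, namely the peaks with the largest rise at *1700106N22Rik* (chr17:85336126-85336425) and *1600021P15Rik* (chr16:28909276-28909575), both intronic, and the intronic peak that fell most clearly, at *3110057O12Rik* (chr3:40926376-40926675). The last 2 are RefSeq promoters that lay within a peak that rose, running from 250 bases before to 50 bases after the start of *E130018O15Rik* (chr5:35388427-35388726, minus strand) and of *4933403G14Rik*, now *Map10* (chr8:125669568-125669867, plus strand).

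1700106N22Rik intronic peak, higher in KO: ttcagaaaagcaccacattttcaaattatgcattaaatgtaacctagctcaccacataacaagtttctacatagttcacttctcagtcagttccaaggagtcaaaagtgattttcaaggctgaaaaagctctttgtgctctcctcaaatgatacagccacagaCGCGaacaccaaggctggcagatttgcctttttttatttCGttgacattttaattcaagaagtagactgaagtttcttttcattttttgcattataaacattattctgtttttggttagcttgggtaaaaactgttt
1600021P15Rik intronic peak, higher in KO: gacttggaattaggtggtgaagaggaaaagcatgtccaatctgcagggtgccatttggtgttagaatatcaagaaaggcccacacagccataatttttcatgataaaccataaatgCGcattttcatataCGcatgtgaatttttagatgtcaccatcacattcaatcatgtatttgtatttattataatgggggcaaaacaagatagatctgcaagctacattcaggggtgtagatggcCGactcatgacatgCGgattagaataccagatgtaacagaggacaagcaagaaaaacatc
3110057O12Rik intronic peak, lower in KO: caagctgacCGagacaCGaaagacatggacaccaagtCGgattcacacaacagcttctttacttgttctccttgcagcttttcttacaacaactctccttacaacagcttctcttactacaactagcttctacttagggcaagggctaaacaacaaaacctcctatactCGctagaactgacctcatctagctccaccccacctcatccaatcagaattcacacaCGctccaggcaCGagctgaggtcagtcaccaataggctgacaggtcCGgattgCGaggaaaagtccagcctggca
E130018O15Rik promoter, higher in KO: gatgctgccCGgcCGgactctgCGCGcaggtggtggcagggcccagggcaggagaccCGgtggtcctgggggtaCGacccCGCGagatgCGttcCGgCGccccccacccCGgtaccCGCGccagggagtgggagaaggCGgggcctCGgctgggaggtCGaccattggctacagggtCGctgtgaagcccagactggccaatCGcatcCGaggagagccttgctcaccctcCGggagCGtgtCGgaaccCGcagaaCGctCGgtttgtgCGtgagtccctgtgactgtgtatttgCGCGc
4933403G14Rik promoter, higher in KO: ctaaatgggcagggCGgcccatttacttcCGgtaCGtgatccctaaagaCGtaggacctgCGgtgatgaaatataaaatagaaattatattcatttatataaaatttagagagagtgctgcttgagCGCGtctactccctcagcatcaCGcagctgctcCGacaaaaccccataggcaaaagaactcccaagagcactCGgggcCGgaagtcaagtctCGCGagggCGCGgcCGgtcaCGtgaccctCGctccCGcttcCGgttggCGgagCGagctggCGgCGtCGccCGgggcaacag

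The letters CG (the same on both strands) stood 3, 4 and 8 times in the 3 intronic windows, and 29 and 26 times in the promoters of *E130018O15Rik* and *4933403G14Rik*. The central 300 bases of all 53761 peaks held a median of 2, and 3.64% of them held 10 or more. All 32851 promoters of the RefSeq table held a median of 7, and 43.5% of them held 10 or more. At least 1 CG was present in 81.2% of peak centres and in 94.6% of promoters. The 3110057O12Rik window was 62% soft-masked, which marks repeats in the assembly, against 8% in each of the other intronic windows. Of the 411 genes, 286 had a promoter in the table.

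Rik-named peaks were found to belong to no single type of transcript. By gene ID, 958 of them matched the GENCODE annotation, where 619 peaks at 252 genes kept their Rik symbol and 339 peaks at 154 genes carried another symbol. Protein-coding genes held 609 peaks at 252 genes. Noncoding genes held 336 peaks at 146 genes, mostly lincRNAs (233 peaks at 83 genes) and antisense transcripts (64 peaks at 45 genes), and 9 peaks lay at pseudogenes. Introns alone were covered by 648 peaks, exons were touched by 179, and 131 lay outside the gene. The annotated start site was covered by 27 peaks.

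Most Rik-named genes had few peaks. A single peak was found at 258 genes and 2 peaks at 79 genes. The 10 genes with the most peaks were *C130026I21Rik* (47 peaks), *A830018L16Rik* (40), *4930555F03Rik* (26), *C030047K22Rik* (23), *1700106N22Rik* and *5033411D12Rik* (22 each), *A230006K03Rik* and *B930007M17Rik* (19 each), *A330008L17Rik* (17) and *C230029F24Rik* (12). Among these, *1700106N22Rik* is now *Camkmt*, which encodes a methyltransferase for calmodulin, *5033411D12Rik* is *Sugct*, which encodes a CoA-transferase of glutarate metabolism, and 5 of the 10 are lincRNAs. *C130026I21Rik* and *A830018L16Rik* are both on chromosome 1, which carried 130 Rik-named peaks (13.5% of them, against 10.2% of all peaks). Peaks at *Camkmt* covered 149 kb in total, more than those of any other gene among the 10, followed by *C130026I21Rik* with 114 kb.

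In width and level, Rik-named peaks were close to the rest of the table. Their median width was 1200 bp (range 300 to 44250), against 1050 bp for all peaks and 1200 bp for peaks at all named genes. The WT level, as the mean of the matched log2 read counts, had a median of 4.35, against 4.07 for all peaks and 4.24 at named genes. Per kb of peak, the median WT level was 16.8 matched reads, against 15.7 for all peaks and 16.1 at named genes. The WT input held a median of 12 reads per Rik-named peak and 10 per peak of the whole table. WT log2 level minus WT log2 input had a median of 0.88, against 0.79 and 0.81, where the input was not scaled to the ChIP libraries, so the difference can only be compared between peaks. None of these differences was tested, since peaks are not replicates.

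The widest Rik-named peaks lay at 3 genes. At *1600021P15Rik*, now *Mb21d2*, which encodes a Mab-21 domain protein, there were 2 of them, of 44250 and 33300 bp. The others were a peak of 33450 bp over the start of *C130026I21Rik* and 2 of 29250 and 29100 bp within *Camkmt*. In all, 22 Rik-named peaks at 15 genes were at least 10 kb wide.

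The highest levels per kb stood where the input was high too. An intronic peak of *2610528E23Rik*, now *Cmss1* (chr16:57390751-57392250, shared with *Filip1l*), had 165 matched reads per kb in WT and 70.7 WT input reads per kb, and an intronic peak of *2210408I21Rik* (chr13:77438401-77439600) had 87.9 and 63.3. A 5100 bp peak of *C130026I21Rik* followed with 58.2 matched reads and 38.8 input reads per kb, then *C230081A13Rik* (*Peak1*, an atypical kinase) with 51.2 and 26.7. The fifth was the widest *C130026I21Rik* peak with 47.8 and 26.6. The median input over Rik-named peaks was 9.33 reads per kb. In addition to the first 3 of these, the highest input per kb was found at 2 more *C130026I21Rik* peaks with 29.7 and 27.3 reads per kb. All 5 of the peaks with the highest WT level relative to input had 2 or fewer WT input reads, which leaves that ratio poorly measured: it was 4.00 on the log2 scale at *9030624G23Rik*, 3.77 at *A330008L17Rik*, 3.27 at *C130026I21Rik*, 3.23 at *E130304F04Rik* (*Nim1k*) and 2.81 at *2410018L13Rik*. The input values of 0 and 1 read are not distinguished in the deposited table.

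To ask where H3K9me3 depended on Smarcad1, KO was compared with WT by limma over all 53761 peaks, with Benjamini-Hochberg adjustment. At an adjusted p under 0.05, 45 Rik-named peaks at 26 genes changed (4.67%), against 1.66% of all peaks and 3.9% of peaks at named genes. H3K9me3 rose in KO at 25 of them (2.6%, against 0.796% of all peaks and 2.49% at named genes) and fell at 20 (2.08%, against 0.863% and 1.42%). For all 45, the 3 KO values and the 3 WT values did not overlap. That was also true of 22.2% of all Rik-named peaks, where 15.6% of all peaks did not overlap. The 25 rises were concentrated in a pair of genes, *Camkmt* with 13 and *Mb21d2* with 5. Without these, 7 rises (0.749%) and 19 falls (2.03%) were left among 934 peaks, 2.78% in all. The 20 falls were spread over 18 genes on 11 chromosomes. The number of calls depended on the variance prior: where limma did not let it follow the level of a peak, 8 Rik-named peaks passed (0.236% of all peaks), 2 of them rises at *Camkmt* and 3 at *Mb21d2*.

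The median log2 fold change over the 963 peaks was -0.05, against 0.00 over all peaks. The deposited values share a common distribution between libraries, so a gain or loss across all peaks could not show. The mean log2 level over the Rik-named peaks was 4.46 ± 0.02 in WT and 4.43 ± 0.05 in KO (SD, n = 3 libraries each). In the libraries, peaks with at most 100 reads held a median of 16 to 23 reads, and the standard error of a log2 fold change had a median of 0.27 over the Rik-named peaks. Changes well below 1 on the log2 scale were therefore not detectable at most of them. The smallest change that passed was -0.54, at *2210016F16Rik*, with 62 or more reads in each library.

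**Figure D1:**
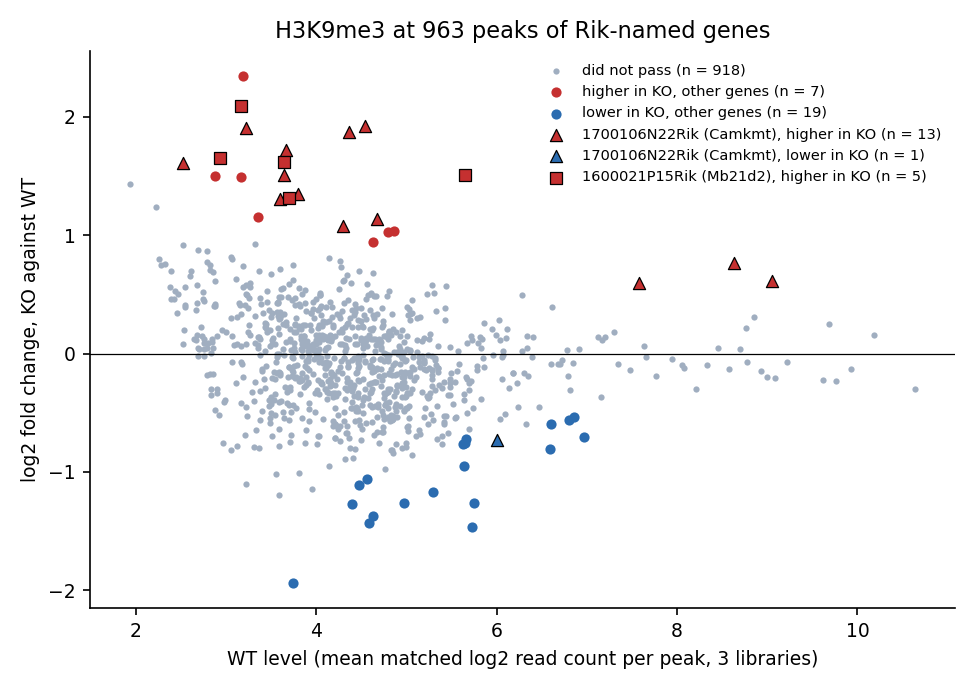
Log2 fold change of H3K9me3 in KO against WT (y axis) by WT level (x axis, mean matched log2 read count of 3 libraries) for each of the 963 Rik-named peaks, with peaks that passed the limma test in colour and those of *Camkmt* and *Mb21d2* outlined. The rises include 18 outlined peaks of these genes, 3 of them at WT levels above 7, and the 20 falls lie at WT levels between 3 and 7.

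At *1700106N22Rik* (*Camkmt*, chr17:85090552-85458588, plus strand), 13 of 22 peaks rose and 1 fell. All 13 lay in introns, between 116 and 301 kb after the start of the gene, within a stretch of 184 kb. It contained 5 peaks of at least 10 kb that ran nearly end to end from 122 to 244 kb. There the median WT level was 18.2 matched reads per kb, and the change was small. At the widest, chr17:85304851-85334100, WT libraries had log2 levels of 8.59, 8.50 and 8.82, and KO libraries 9.26, 9.56 and 9.38. The lowest KO value was above the highest WT value (log2 fold change 0.76, standard error 0.10, limma adjusted p = 2.7e-07). The log2 fold changes of the 5 wide peaks ranged from 0.22 to 0.76, and 3 of them rose.

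Just beyond the wide peaks, the median H3K9me3 level in WT was lower than over them, and most peaks rose in KO. From 244 to 301 kb after the start lay 9 narrower peaks with a median WT level of 6.94 matched reads per kb. In KO their median was 21.6, against 21.0 to 30.1 over the 5 wide peaks (median 25.7), and 8 of the 9 rose. Peaks were found in WT and KO libraries together, so a stretch low in WT could become a peak through its KO reads. The difference at such peaks is therefore not independent of how peaks were chosen. The largest change was at the first of the 9, chr17:85334251-85338300, whose sequence is given above. WT libraries had log2 levels of 4.57, 4.31 and 4.75 there, and KO libraries 6.27, 6.76 and 6.37. The groups were well separated (log2 fold change 1.93, standard error 0.19, limma adjusted p = 1.36e-10). The next peak, chr17:85341151-85342500, had 10, 7 and 13 reads in the WT libraries and 24, 53 and 31 in the KO libraries, which was a rise by 1.90 on the log2 scale (standard error 0.29). The one narrower peak here that did not rise, chr17:85358701-85360200, had a WT level of 14.1 matched reads per kb and a log2 fold change of 0.37 that did not pass.

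Just before the wide peaks, from 116 to 122 kb, 2 of 3 narrow peaks rose, with log2 fold changes of 1.61 and 1.13, and the third had 0.79 (limma adjusted p = 0.106). The ends of the gene did not take part. The first 3 peaks, 6.8 to 54.7 kb after the start, had log2 fold changes of -0.73, -0.22 and -0.21, and the first of these fell (chr17:85097401-85099950, limma adjusted p = 0.0241). The last 2 peaks, 316 to 331 kb after the start, had -0.09 and -0.46 and did not pass. The 3 nearest peaks on either side of the gene, including 2 at *Ppm1b*, had log2 fold changes between -0.56 and 0.26 and did not pass either. Over the 22 peaks, the single input libraries held 1390 reads in WT and 1295 in KO, and over the 9 narrower peaks 175 and 176.

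**Figure D2:**
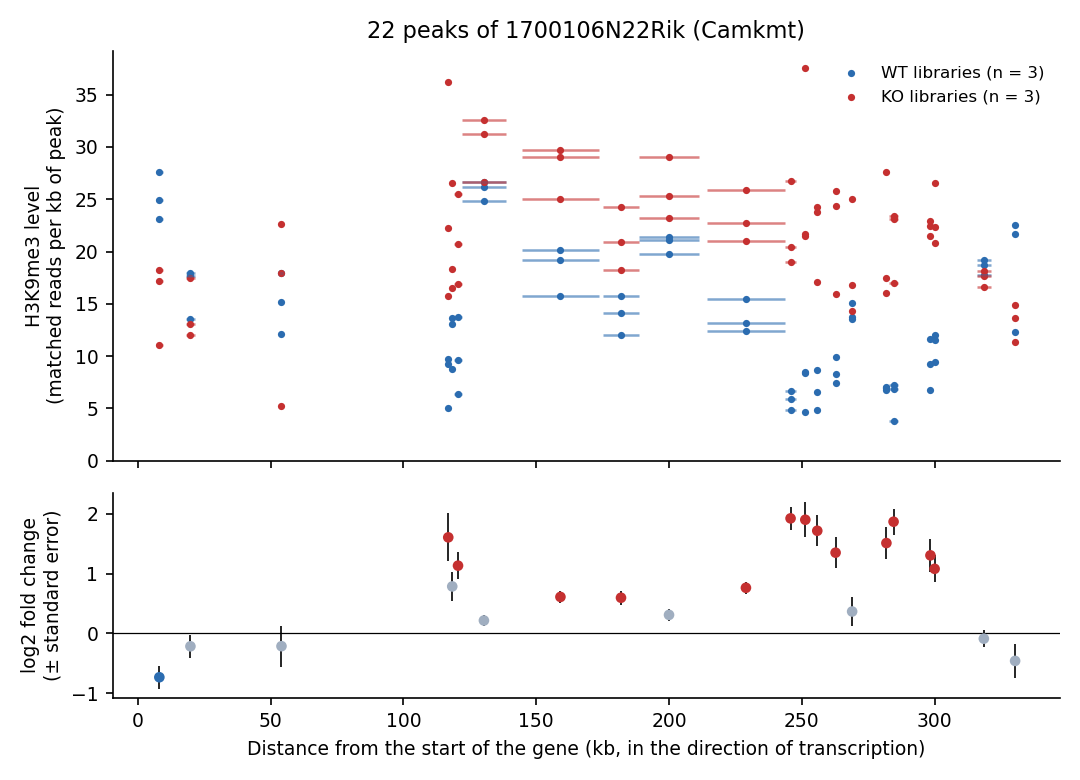
H3K9me3 at the 22 peaks of *1700106N22Rik* (*Camkmt*) by distance from the start of the gene, in kb. Upper panel, matched reads per kb in each of 3 WT and 3 KO libraries, with lines for the width of a peak; lower panel, log2 fold change ± standard error, red for peaks that rose and blue for the one that fell. At the 9 narrower peaks from 244 to 301 kb the median is 6.94 in WT and 21.6 in KO.

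*1600021P15Rik* (*Mb21d2*, chr16:28826176-28929673, minus strand) also had narrower peaks that rose beside wide ones. Its 2 wide peaks, from 27.7 kb after the start to beyond the end of the gene, had 26.2 and 24.6 matched reads per kb in WT, and their log2 fold changes of 0.16 and 0.25 did not pass (limma adjusted p = 0.487 and 0.158). Between them and the start of the gene, from 7.4 to 27.2 kb after the start, lay 5 narrower intronic peaks, and all 5 rose, by 1.32 to 2.09 on the log2 scale. Their median level was 7.56 matched reads per kb in WT and 22.2 in KO. Here too, a stretch low in WT could become a peak through its KO reads.

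At chr16:28908601-28910250, whose sequence is given above, WT libraries had 6, 11 and 12 reads and KO libraries 43, 44 and 27, while the inputs held 11 (WT) and 15 (KO). Each KO library had more reads than any WT library (log2 fold change 2.09, standard error 0.29, limma adjusted p = 1e-06). The peak with the most reads of the 5, chr16:28910251-28916700, had log2 levels of 5.82, 5.44 and 5.70 in WT and 7.17, 7.09 and 7.23 in KO. The libraries of a genotype lay close together there (log2 fold change 1.51, standard error 0.15, limma adjusted p = 1.46e-10). The weakest evidence was at chr16:28916701-28917900, where WT replicate 1 (4.09) nearly reached KO replicate 1 (4.16). Without WT replicate 3, 3 of the 5 peaks passed. The 3 nearest peaks on either side of the gene did not pass, with log2 fold changes between -0.94 and 0.24.

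**Figure D3:**
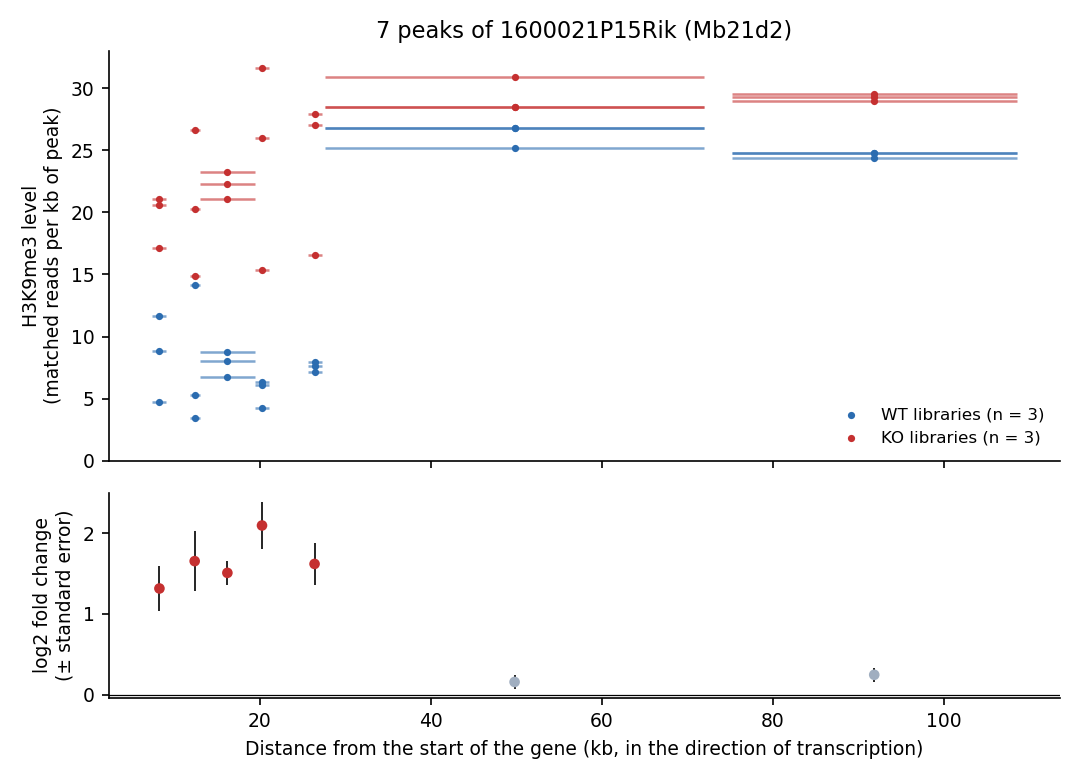
H3K9me3 at the 7 peaks of *1600021P15Rik* (*Mb21d2*), drawn as for *Camkmt*, with distance from the start of the gene in kb on the x axis, matched reads per kb in each library above and log2 fold change ± standard error below. WT and KO libraries are separated at the 5 narrower peaks within 28 kb of the start, though 1 WT library nearly reaches KO at one of them, and lie closer together over both wide peaks.

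A high number of peaks did not go with change at other genes. Of the 10 genes with the most peaks, *Camkmt* had a median log2 fold change of 0.77, and the others lay between -0.04 and 0.33. At those other genes 1 peak passed, a rise of 1.50 at *C130026I21Rik* (chr1:85198951-85199850, limma adjusted p = 0.00566). Libraries had 6, 8 and 9 reads there in WT and 16, 18 and 27 in KO. It also overlaps *Gm2619* and *Gm7609*, so it cannot be assigned to 1 gene, and it did not pass in 1 of the 6 fits that each left out a library.

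**Figure D4:**
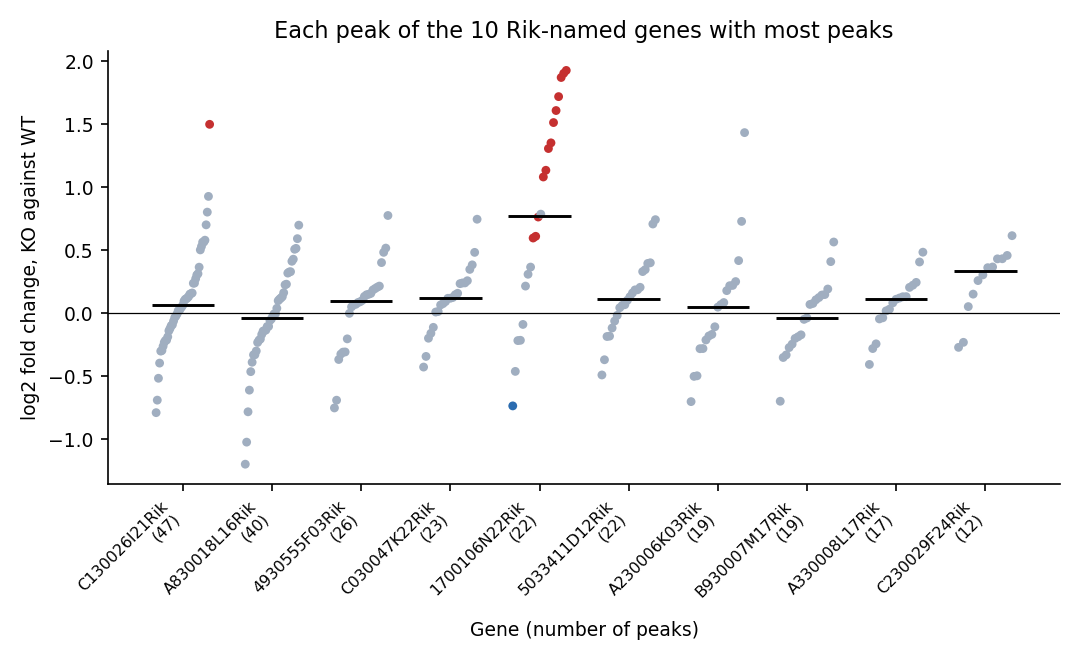
Log2 fold change of each peak (points) at the 10 Rik-named genes with the most peaks, in order of their number, with the median of a gene as a black line. Red points rose, blue points fell and grey points did not pass; *1700106N22Rik* (*Camkmt*) has a median of 0.77 and 13 of its 22 points in red.

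The other 7 rises were at 7 genes, and 2 of them covered a start site. The largest rise of all Rik-named peaks was at *E130018O15Rik*, a lincRNA whose start shares the peak (chr5:35388001-35389500) with *Hmx1*, a homeobox gene. WT libraries had 7, 10 and 12 reads and KO libraries 40, 67 and 35, with 13 reads in each input. H3K9me3 was 5.08 times as high in KO (log2 fold change 2.34, standard error 0.27, limma adjusted p = 8.49e-09). This peak had 103 CG per kb, the highest of the 963, against a median of 6.67.

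The start of *4933403G14Rik* (*Map10*, a microtubule-associated protein) had 9, 10 and 9 reads in WT and 32, 25 and 18 in KO (chr8:125668951-125670000, log2 fold change 1.49, standard error 0.32, limma adjusted p = 0.00292). The adjoining peak within the gene, chr8:125670001-125673600, had a log2 fold change of 0.05 and did not pass. Over all 27 peaks at a start site the median log2 fold change was 0.06, and the 2 described here were the ones that passed by limma (7.41%, against 4.67% of all Rik-named peaks and 1.66% of all peaks), a difference that was not tested.

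The remaining 4 rises lay within *9030624G23Rik* (1.15), *4921506M07Rik* (*Ttc6*, 1.03), *1700025G04Rik* (1.03) and *4930403N07Rik* (*Ccdc175*, 0.94). Those at *Ttc6* and *1700025G04Rik* passed in all 6 fits that each left out a library. The one at *9030624G23Rik* rested on 6, 12 and 16 reads in WT and 18, 31 and 19 in KO, and passed in 2 of the 6.

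Among the falls, the most clearly separated was at *3110057O12Rik*, now *Abhd18*, an abhydrolase domain gene (chr3:40925401-40927650, intronic). WT libraries had 45, 57 and 65 reads and KO libraries 17, 16 and 23, while the input had 14 reads in WT and 26 in KO. The KO values were 2.75 times lower (log2 fold change -1.46, standard error 0.21, limma adjusted p = 3.96e-06). The other 5 peaks of the gene had log2 fold changes from -0.81 to -0.04 and did not pass.

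The lincRNA *A930003A15Rik* had a peak 3.18 kb before its start (chr16:19887451-19890000) with 41, 68 and 63 reads in WT and 16, 24 and 26 in KO. The groups did not overlap (log2 fold change -1.27, standard error 0.21, limma adjusted p = 4.28e-05). Before the start of *2610002I17Rik* (*Elp6*, a subunit of the Elongator complex), WT libraries had 37, 37 and 51 reads and KO libraries 19, 18 and 14 (log2 fold change -1.17, limma adjusted p = 0.00192).

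At *6330416G13Rik* (*Tmem268*, a transmembrane protein) 2 intronic peaks fell. The one at chr4:63573001-63574200 had 19, 27 and 34 reads in WT and 9, 9 and 10 in KO (log2 fold change -1.37). The other, chr4:63577201-63577650, had the largest value of all falls, -1.93, from 12, 14 and 16 reads in WT and 1, 8 and 4 in KO. It passed in 1 of the 6 fits that each left out a library. The inputs held 6 reads (WT) and 12 (KO) at the first peak, and 4 and 2 at the second. With the log2 input subtracted, the second had -0.93 and did not pass (limma adjusted p = 0.178). At the lincRNA *6430710C18Rik* 2 peaks fell as well, by 1.26 and 0.72 on the log2 scale. They passed in 4 and 2 of the fits that each left out a library.

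Further large falls were at 2 genes. *A830010M20Rik*, a symbol that did not match GENCODE and whose peak overlaps *Glmn*, had 19, 26 and 32 reads in WT and 11, 5 and 12 in KO (log2 fold change -1.43), and *2900011O08Rik* had 18, 27 and 22 against 11, 4 and 14 (-1.27). These passed in 4 and 2 of the 6 fits. The inputs held 16 reads (WT) and 8 (KO) at *A830010M20Rik*, and 8 and 11 at *2900011O08Rik*. With the log2 input subtracted, the log2 fold change at *A830010M20Rik* was -0.43 and did not pass (limma adjusted p = 0.384). Across all falls, the count was 20 with all libraries, 13 without WT replicate 1, 9 without WT replicate 2 and 8 without WT replicate 3, while the share of all peaks that fell went from 0.863% to 0.454%, 0.37% and 0.471%. It was 16 to 18 when a KO library was left out, where 0.671% to 0.843% of all peaks fell. Of the 20, 6 passed in all 6 of these fits, as did 18 of the 25 rises.

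**Figure D5:**
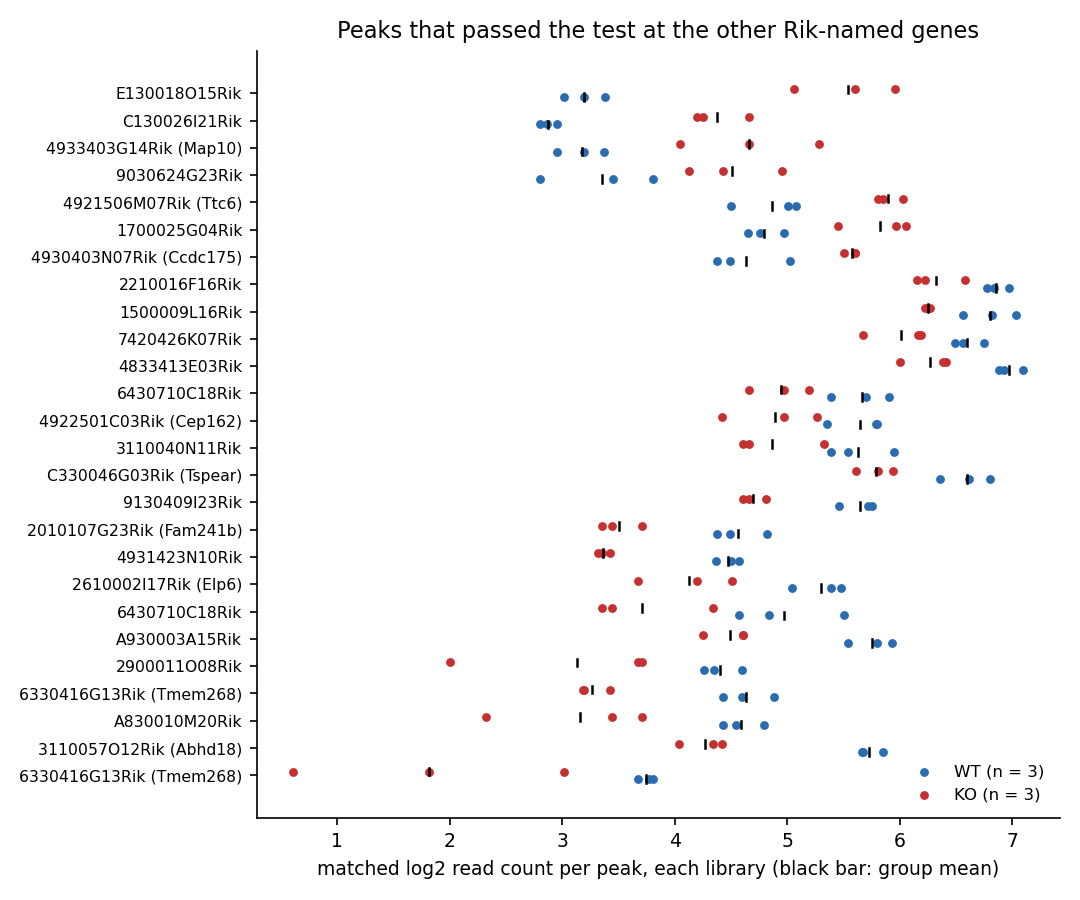
Matched log2 read count in each WT and KO library (points) and the mean of a genotype (black bars, n = 3) for the 26 peaks that passed the test at Rik-named genes other than *Camkmt* and *Mb21d2*, ordered by log2 fold change. KO points lie to the right of all WT points at the upper 7 peaks and to the left of them at the lower 19.

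Of the 20 falls, 6 lay outside the gene. Peaks that the table calls downstream lay before the start of the gene by the GENCODE model in 54 cases and overlapped it in 5, and those it calls upstream lay after its end in 75 cases and overlapped it in 1, so the word appears to give the direction from the peak to the gene. Read in this way, 5 of the 54 peaks before the start fell (9.26%, at *A930003A15Rik*, *Elp6*, *6430710C18Rik*, *7420426K07Rik* and *4833413E03Rik*) and none rose. At all named genes, 27 of 1199 such peaks fell (2.25%) and 1 rose. Of the 75 peaks after the end, 1 fell (1.33%), at *3110040N11Rik*, and none rose. At all named genes, 25 of 1324 such peaks fell (1.89%) and 4 rose. This grouping was made after the values were seen and the differences were not tested.

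Rises and falls met at different levels. Peaks that rose had a median WT level of 8.15 matched reads per kb and peaks that fell 22.7, with 22.3 and 11.1 in KO. The median of all Rik-named peaks was 16.8 in WT and 16.04 in KO, so that, by their medians, rises began below it and ended above it, and falls the reverse. WT input at these peaks had medians of 9.14 and 8.34 reads per kb. WT and KO levels enter the fold change, and peaks were found in both genotypes together, so this is a description and was not tested. Peaks that rose had a median of 16.97 CG per kb and were 14.3% soft-masked, whereas those that fell had 9.29 CG per kb and were 40.8% soft-masked, against 6.67 and 36.6% over all Rik-named peaks. As 18 of the 25 rises were from neighbouring peaks of 2 genes, these medians rest largely on *Camkmt* and *Mb21d2*. The other 7 rises had medians of 19.7 CG per kb and 14.3%. Similar medians were found over all peaks. There the 428 that rose had 8.63 matched reads per kb in WT, 16.3 CG per kb and 15.4% soft-masked bases. The 464 that fell had 22.6, 8.3 and 39.4%.

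By class of transcript, changes were found mostly at protein-coding genes, with 24 rises and 15 falls among 609 peaks (6.4%). At noncoding genes 1 peak of 336 rose and 4 fell (1.49%, against 1.66% of all peaks). Antisense transcripts had none among 64 peaks, too few to set against the 1.66% of all peaks. Genes that have since been renamed held 21 rises and 8 falls among 339 peaks (8.55%), and those that kept a Rik symbol 4 and 11 among 619 (2.42%). *Camkmt* and *Mb21d2* are both protein-coding and renamed. Without them, 20 of 580 peaks at protein-coding genes passed (3.45%), and 10 of 310 at renamed genes (3.23%). Of peaks at all named genes, 3.9% passed. The differences between these classes were not tested.

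Zinc finger genes are a known site of H3K9me3. Of 20 Rik-named genes listed as encoding zinc finger proteins of the C2H2 type, 11 had a peak, with 26 peaks in total and widths up to 26550 bp (*D130040H23Rik*). None of the 26 passed by limma, too few peaks to set against the 1.66% of all peaks (6 had an unadjusted p under 0.05, as did 10.6% of all peaks). Their median log2 fold change was 0.11. At *2410141K09Rik*, the peak with the highest level of the list had 40.9 matched reads per kb in WT and 42.2 in KO. The nearest to the threshold on this list was at *6720489N17Rik* (chr13:62600701-62605650), with log2 levels of 6.27, 6.14 and 6.44 in WT and 6.79, 6.78 and 6.77 in KO (log2 fold change 0.49, limma adjusted p = 0.0658). Among 77 Rik-named peaks (8.00% of them, against 3.63% of all peaks) within 100 kb of a gene named *Zfp*, none passed. Of all 1951 peaks within this distance 39 passed (2.00%), and 77 peaks are too few to set against that share. An unadjusted p under 0.05 by limma was found at 15 of the 77, against 292 of the 1951 and 186 of all 963 Rik-named peaks. These differences were not tested. The median log2 fold change of the 77 was -0.08.

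Near the threshold, the last Rik-named peaks to pass had adjusted p-values of 0.0474 (*3110040N11Rik*), 0.0477 (*6430710C18Rik*) and 0.048 (*2900011O08Rik*) by limma. The first that did not pass had 0.0577 (*2510009E07Rik*), 0.0615 (*1700049G17Rik*) and 0.0658 (*6720489N17Rik*). *1700049G17Rik* is now *Zfp974*, a zinc finger gene that was not on the list above, and its peak had a log2 fold change of -0.60. By an exact binomial test of the 2 input libraries, input coverage differed at none of the 963 peaks at an adjusted p under 0.05. Of all 53761 peaks, 6 passed. The test compares those libraries and not the genotypes. With medians of 12 (WT) and 11 (KO) input reads per Rik-named peak, only large differences could pass. *Smarcad1* had no peak in the table, so its deletion could not be checked here.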

How the data were processed

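H3K9me3 ChIP-seq was analysed in 3 WT and 3 KO libraries and 1 input per genotype, assigned from the sample records. The authors trimmed reads with Trim Galore (0.6.1 in the submitters' processing notes, another version in the methods) and mapped them to GRCm38 with Bowtie2 2.3.2, with a mapping quality cutoff of 20 and duplicates discarded. Peaks are from MACS within SeqMonk, with the ChIP libraries pooled, 300 bp fragments and a p-value limit of 1e-05, so that repeats are covered only where reads mapped. Peaks were annotated to a gene within 5 kb. The sample records give 50 bp single reads and the methods 100 bp reads. The deposited values are log2 read counts per peak, brought by the authors to 1 common distribution over the 6 ChIP libraries, and unscaled log2 counts for the inputs. The second deposited table, with the p-values, FDR and fold changes of the authors' own comparison, was not used. Every mapped column was used, with 0 others.

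KO was compared with WT by limma 3.58.1 in R 4.3.3 on all 53761 peaks (variance prior following the mean level, two-sided, Benjamini-Hochberg adjusted p under 0.05). The test was run on simulated data whose spread came from the same fit, which does not bear on the choice of variance prior. Reads per library were recovered from the steps between deposited values, up to 100 reads (905 of the 963 peaks lie at or below this in every library). A matched read per kb is 2 to the power of the mean log2 value, divided by the width. Gene models came from GENCODE vM21 by gene ID, and sequence, CG and soft-masked bases from GRCm38.p6. Tables were made with Python 3.11.15, numpy 2.4.6 and pandas 2.3.3.

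The Rik-named peaks, the gene lists and the tests were chosen with earlier results of these data known. Named were *1700106N22Rik*, the 10 genes with most peaks, the 8 largest non-overlapping changes in each direction, genes with 2 or more changed peaks, the 5 widest peaks, the 5 with the highest level per kb, level over input and input per kb, and those nearest the threshold. Other changed peaks, and the peaks of listed zinc finger genes, were named after their values were seen. The zinc finger list was by gene name, as no protein table was used here.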

Additional observations from a re-analysis of the deposited data

How the results depend on the processing

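Of the 45 Rik-named peaks that changed, none turned direction under any alternative tried. For much of this the outcome was fixed in advance. KO and WT values did not overlap at any of the 45, so leaving out a library could not turn a sign. A variance prior without a trend, or the replicate number as a block, leaves the fold change itself as it was. A further quantile normalization and centring on library medians gave 45 and 43 changed peaks, where 1.65% and 1.61% of all peaks changed. The deposited values were already matched between libraries, so these steps could change little. The following moved the counts. With a variance prior without a trend 8 peaks changed (7 higher, 1 lower), with 2 rises at *1700106N22Rik* and 3 at *1600021P15Rik*. With ChIP minus input, where the single input of a genotype adds no spread between replicates by construction, 289 changed (157 higher, 132 lower), against 29.5% of all peaks, with 3 rises at *1600021P15Rik* and a median log2 fold change of 0.039 in place of -0.05. Of the 45 peaks of the main test, 32 still passed there, namely 20 of the 25 rises and 12 of the 20 falls. With limma voom on recovered reads, which leaves out peaks above 100 reads, 11 fell, against 0.605% of all peaks tested. At an adjusted p under 0.01, 9 fell, against 0.411% of all peaks. By at least 1 on the log2 scale 10 fell, against 0.372%. When each library was left out in turn, 31 to 42 peaks changed, against 1.06% to 1.5% of all peaks. There were 22 to 25 rises and 8 to 18 falls, against 0.554% to 0.792% and 0.37% to 0.843%. Rises numbered 12 to 13 at *1700106N22Rik* and 3 to 5 at *1600021P15Rik*, and the median log2 fold change was -0.08 to -0.02. The cause of these shifts was not tested. The deviations of libraries with the same replicate number from their group means had correlations of -0.001, 0.019 and 0.016. Those of the other pairs ranged from -0.024 to 0.007. With few reads per peak, such values cannot show whether the numbers pair the samples. With the replicate number as a block, 44 peaks changed (25 higher, 19 lower), against 1.62% of all peaks. Low reads per peak limit all values at narrow peaks.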
